A study of Mus musculus with 4 samples.

Results

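The sperm ADAM proteases are a group of germ cell membrane proteins, and the report covers 10 of their genes: *Adam1a*, *Adam1b*, *Adam2*, *Adam3*, *Adam5*, *Adam18*, *Adam24*, *Adam29*, *Adam30* and *Adam32*. Members were taken from the array by name. A probe set, the group of short oligonucleotides that reads a transcript on an Affymetrix GeneChip, was included when the platform annotation gave it a single gene symbol and that symbol was on the list. This rule found 10 probe sets of 8 genes among the 45037 probe sets of the array that are not Affymetrix controls. *Adam1b* had 3 of them, the 7 other genes had 1 each, and *Adam29* and *Adam30* had 0, so these 2 genes were not measured here. For *Adam1a*, 4 further probe sets are paired with another gene as well and were left out by the rule. No measured value entered this rule, although the members were listed with earlier results of these data known.

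The array experiment asked which testis transcripts depend on *Ccnyl1*, a member of the cyclin Y family. WT mice (2) and *Ccnyl1*-/- mice (2), all C57BL/6, adult and 2 months old, gave 1 testis array each. The *Ccnyl1*-/- males, which are sterile, have the EUCOMM allele in its knockout-first form (tm1a), in which *LacZ* stands in the locus, and they were bred from heterozygous parents. Whole testis RNA holds germ cells of all stages together with Sertoli, Leydig, peritubular and blood-borne cells. Values are MAS 5.0 signals, the Affymetrix summary of the brightness of a probe set in arbitrary units. As a check of the labels, the single probe set of *Ccnyl1* gave 2256 and 2425 in the WT mice and 921 and 969 in the *Ccnyl1*-/- mice, which is 40.4% of the WT mean (adjusted p = 0.00463 from limma). A signal was thus still read in the *Ccnyl1*-/- testes, and where the probes lie relative to the inserted sequence was not analysed here.

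ADAM proteins are anchored in the membrane and carry a prodomain, a metalloprotease domain, a disintegrin domain and a cysteine-rich region outside the cell. In many of the family members made in the testis the protease domain lacks the residues that hold zinc, so they are thought to work through binding rather than cutting. ADAM1B and ADAM2 pair on the sperm surface as fertilin, while ADAM1A stays in the endoplasmic reticulum of germ cells and is needed for ADAM3 to reach the surface. ADAM3, also called cyritestin, is the member that mouse sperm need to pass from the uterus into the oviduct and to bind the zona pellucida. Chaperones and surface proteins of spermatids, such as calmegin and TEX101, are required for ADAM3 to be present on mature sperm.

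No sperm ADAM probe set differed between the genotypes past the test. Signals were compared as log2(signal + 16) with limma over the 32438 probe sets with a mean signal of at least 32 on the 4 arrays, and an adjusted p under 0.05 (Benjamini-Hochberg) counted as called. All 10 member probe sets had passed that minimum. Of them 0 were called, against 0.0123% of all tested probe sets, and the lowest adjusted p among the members was 0.645 from limma. At an unadjusted p under 0.05 from limma there was 1 member probe set, that of *Adam32*, and 0 in a fit without the variance trend. Under that p-value in the main fit lay 6.05% of all tested probe sets, and 656 of the 6568 others with a mean signal of at least 1000. Of all tested probe sets under it, 1125 had a higher and 839 a lower signal in *Ccnyl1*-/- testes (571 and 1696 with arrays scaled to one median). Fewer cells of a type and less RNA per cell cannot be told apart in these signals. The *t*-test that the methods name for 2 groups also called 0 members after adjustment. At an unadjusted p under 0.05 it had 2 of the 10, those of *Adam3* and *Adam32*, against 1900 of all 32438 tested probe sets. Of the 10 log2 fold changes (*Ccnyl1*-/- over WT), 6 were negative and 4 positive, a count of negative values that was 5 with quantile normalization and 8 with arrays scaled to one median. Their median was -0.025 and their mean, of the other sign, 0.018, where all tested probe sets had a median of 0.022.

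**Figure D1:**
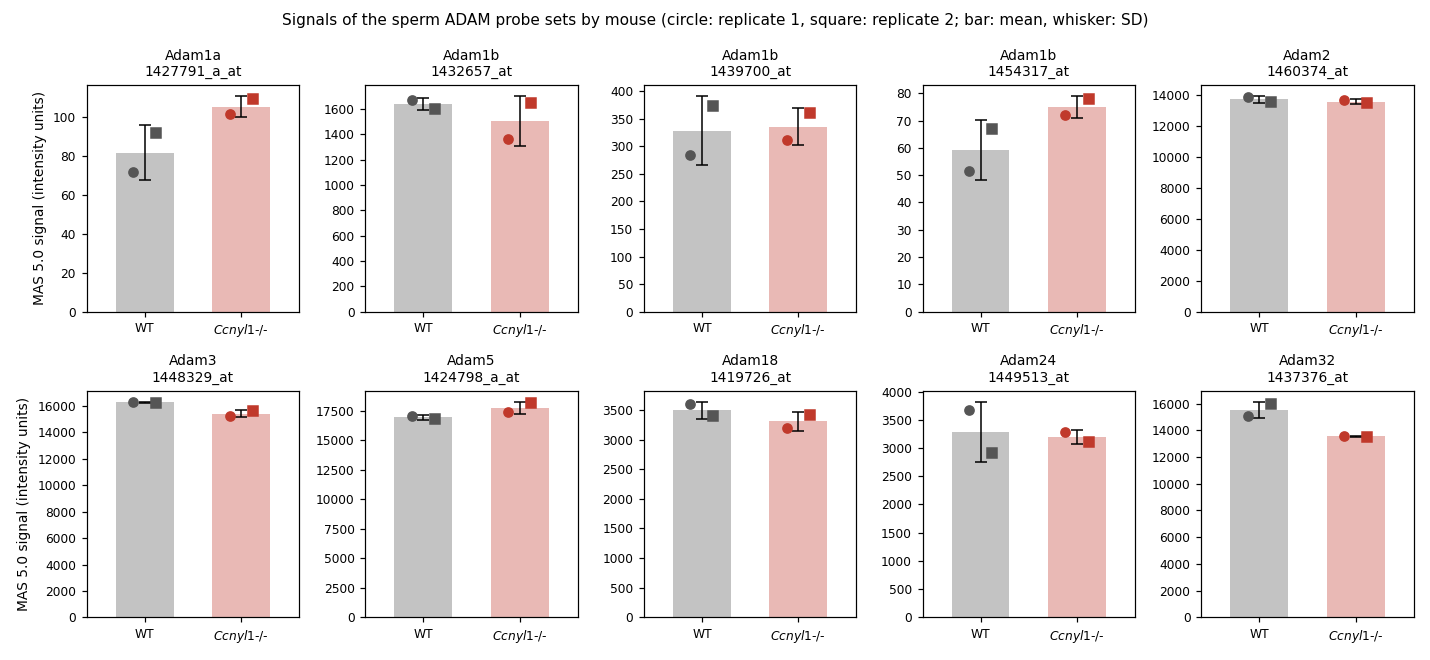
Signals of the 10 sperm ADAM probe sets (MAS 5.0 intensity units, axes from 0) by genotype. A bar is the mean of 2 mice, a whisker the SD, a circle replicate 1 and a square replicate 2. The genotypes lie apart for 5 of the 10 probe sets, against 35.9% of all tested probe sets. Among the 5 is that of *Adam32*, where the WT mice had 15096 and 15960 and the *Ccnyl1*-/- mice 13588 and 13521.

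*Adam32* had the largest difference among the members with a mean signal of at least 1000. It encodes a testis ADAM that lacks a complete protease site. Its probe set 1437376_at read 15096 and 15960 in the WT mice and 13588 and 13521 in the *Ccnyl1*-/- mice, so both *Ccnyl1*-/- testes lay below both WT testes. The mean was 15528 ± 611 in WT and 13555 ± 46.9 in *Ccnyl1*-/- mice (SD, n = 2 each), which is 87.3% of the WT signal. The log2 fold change was -0.20 with a 95% interval from -0.30 to -0.089, and it did not pass the test over all probe sets (adjusted p = 0.645 from limma, unadjusted p = 0.00264 from limma). With 1 mouse left out it ran from -0.24 to -0.16, and over the other settings tried from -0.27 to -0.15. The adjusted p-values of all these alternatives, from limma and from the methods' test, lay between 0.295 and 0.878.

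For *Adam3*, the cyritestin gene, both *Ccnyl1*-/- mice also lay below both WT mice, by less. The signal of 1448329_at was 16311 and 16250 in WT testes and 15255 and 15594 without *Ccnyl1*, with means of 16281 ± 43.3 and 15424 ± 240 (SD, n = 2 each). The log2 fold change was -0.078, with a 95% interval from -0.17 to 0.017 (adjusted p = 0.84 from limma). *Adam5*, whose protein forms complexes with other ADAM proteins on mouse sperm, was the 1 member of such brightness with a value above 0, and its value was -0.012 with arrays scaled to one median. The probe set 1424798_a_at gave 17105 and 16806 in WT testes, both below the 17383 and 18131 of the *Ccnyl1*-/- testes. The means were 16956 ± 212 and 17757 ± 529 (SD, n = 2 each), and the log2 fold change was 0.066, with a 95% interval from -0.032 to 0.16 (adjusted p = 0.86 from limma).

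Of the fertilin genes, *Adam2*, which encodes the beta subunit, had the smallest difference of all members. On 1460374_at the WT mice had 13908 and 13596 and the *Ccnyl1*-/- mice 13716 and 13490, so the genotypes were interleaved. The means were 13752 ± 221 and 13603 ± 160 (SD, n = 2 each), and the log2 fold change was -0.016 with a 95% interval from -0.12 to 0.085 (adjusted p = 0.973 from limma), or 0.026 with quantile normalization. The interval keeps the *Adam2* signal of *Ccnyl1*-/- testes between 0.923 and 1.06 times that of WT on this scale.

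*Adam1b*, which encodes the alpha subunit of fertilin on sperm, was read by 3 probe sets. The first, 1432657_at, gave 1671 and 1603 in the WT mice. The *Ccnyl1*-/- mice had 1366, below the others, and 1646, between the WT mice. The log2 fold change was -0.12, with a 95% interval from -0.37 to 0.12 (adjusted p = 0.89 from limma), and without *Ccnyl1*-/- replicate 1 it was 0.0080. The second, 1439700_at, gave 284 and 373 in the WT mice, with the *Ccnyl1*-/- mice inside that range at 312 and 360. Its log2 fold change was 0.039 (95% interval from -0.36 to 0.44), or -0.035 with arrays scaled to one median, and it was -0.15 without WT replicate 1 and -0.059 without *Ccnyl1*-/- replicate 2. The third, 1454317_at, gave 51.5 and 67.1 in the WT mice and higher signals, 72.2 and 77.9, in the *Ccnyl1*-/- mice. Its log2 fold change was 0.28 with a 95% interval from -0.40 to 0.96 (adjusted p = 0.908 from limma). The probe sets of this gene thus gave values of both signs with intervals that include 0.

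*Adam1a*, which encodes the alpha subunit of the endoplasmic reticulum, was read by 1 probe set of low signal, 1427791_a_at. The WT mice had 71.7 and 91.8 and the *Ccnyl1*-/- mice 102 and 110, with both *Ccnyl1*-/- testes above both WT testes. The means were 81.8 ± 14.2 and 106 ± 5.55 (SD, n = 2 each). The log2 fold change of 0.32 had a 95% interval from -0.25 to 0.90 (adjusted p = 0.878 from limma). At this signal the offset of 16 makes the log2 fold change smaller than on the plain signal, where it was 0.38. On the log2(signal + 16) scale the interval spans from 0.840 to 1.86 times WT, far wider than that of *Adam2*. The interval on the plain signal is not given here.

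*Adam18*, which encodes a testis ADAM without a complete protease site, gave 3597 and 3396 in WT testes and 3197 and 3417 without *Ccnyl1* on 1419726_at. The ranges overlapped, and the log2 fold change was -0.080 with a 95% interval from -0.24 to 0.083 (adjusted p = 0.894 from limma). *Adam24*, whose product is called testase 1, is a member that keeps the protease site and is present on mature sperm. Its probe set 1449513_at varied most between WT mice among the members with a mean signal of at least 1000, with 3666 and 2914, a difference of -0.33 on the log2 scale between the replicates. The *Ccnyl1*-/- mice had 3284 and 3103, both inside that range, and the log2 fold change was -0.034 with a 95% interval from -0.28 to 0.21 (adjusted p = 0.975 from limma). It was 0.13 without WT replicate 1, 0.0068 without *Ccnyl1*-/- replicate 2 and -0.20 without WT replicate 2.

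**Figure D2:**
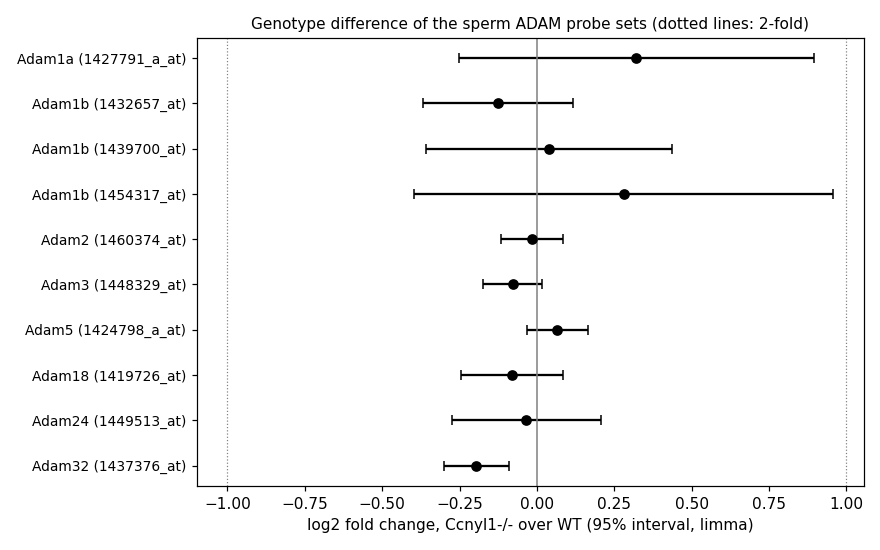
Difference between *Ccnyl1*-/- and WT testes in log2(signal + 16) for each sperm ADAM probe set (points) with its 95% interval from limma (bars), and dotted lines at 2-fold. On this scale, which includes the offset, all 10 intervals lie within 2-fold either way. That of *Adam32* is the 1 interval that does not include 0. In a fit without the variance trend its unadjusted p was 0.147 from limma.

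Over the 10 probe sets, the median absolute log2 difference was 0.079 between the genotype means, 0.081 between the WT mice and 0.086 between the *Ccnyl1*-/- mice, and a difference between means of 2 mice would be smaller than one between single mice where nothing changed. The genotypes did not overlap for 5 of the 10 members (*Adam3*, *Adam5*, *Adam32*, *Adam1a* and the third probe set of *Adam1b*), against 35.9% of all tested probe sets. Of these 5, *Adam3* and *Adam32* had the lower signals in *Ccnyl1*-/- testes and the other 3 the higher ones, with the exception of *Adam5* when arrays were scaled to one median. Over the 6568 other tested probe sets with a mean signal of at least 1000, a limit chosen after the values were seen, the median absolute log2 fold change was 0.070, and 57.0% of them had a negative value, with a median of -0.017. Of the 7 member probe sets above that limit 6 were negative, with a median of -0.078. The genotypes did not overlap for 3 of the 7, against 2743 of the 6568 others. All 10 intervals lay within 2-fold of WT, and those of these 7 within 1.29-fold.

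Leaving out a mouse changed the sign of 4 probe sets: the first and second of *Adam1b*, and those of *Adam2* and *Adam24*. *Adam3*, *Adam5*, *Adam18*, *Adam32*, *Adam1a* and the third probe set of *Adam1b* kept their sign without each of the 4 mice. *Adam3* ran from -0.094 to -0.062, *Adam5* from 0.036 to 0.097, *Adam18* from -0.13 to -0.033 and *Adam1a* from 0.17 to 0.47.

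**Figure D3:**
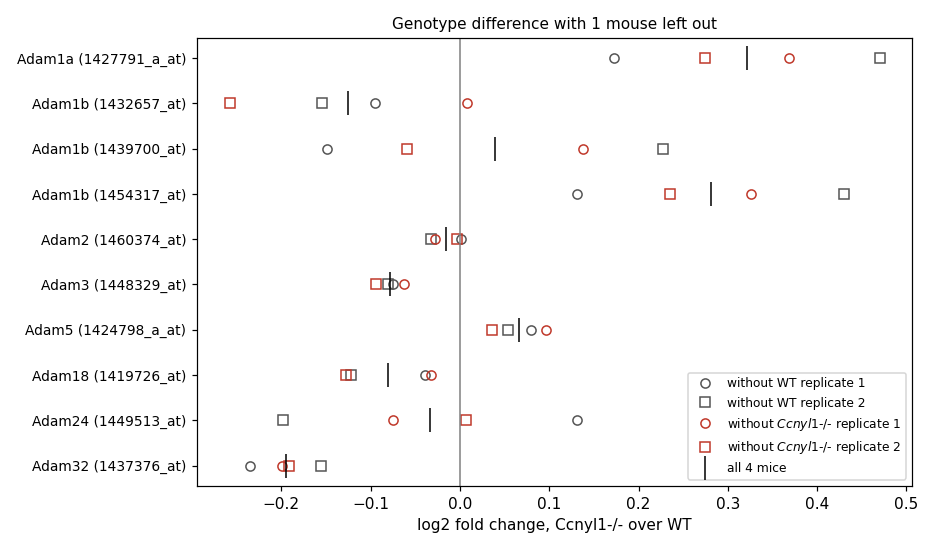
Difference between *Ccnyl1*-/- and WT testes in log2(signal + 16), per sperm ADAM probe set, with all 4 mice (black bars) and without each mouse (open symbols, grey for a WT and red for a *Ccnyl1*-/- mouse, circles for replicate 1 and squares for replicate 2). Symbols fall on both sides of 0 for the first and second probe sets of *Adam1b*, for *Adam2* and for *Adam24*, and those of *Adam32* lie between -0.24 and -0.16.

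A block of these genes lies side by side in the genome. In the RefSeq gene table of GRCm38.p6, *Adam18*, *Adam3*, *Adam5* and *Adam32* follow each other on chromosome 8 with no other protein-coding gene between them, and *Adam9*, a widely expressed member that is an active protease, comes next. Their log2 fold changes in this order were -0.080, -0.078, 0.066 and -0.20, and 0.0059 for *Adam9* (adjusted p = 0.998 from limma). *Adam5* was thus the 1 member of the block above 0, and with arrays scaled to one median it was at -0.012. *Adam24* and *Adam29* lie on chromosome 8 as well, further away. *Adam1a* and *Adam1b* are neighbours on chromosome 5, *Adam2* lies on chromosome 14 and *Adam30* on chromosome 3.

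Other ADAM genes of germ cells and of the epididymis were described by the brightest probe set of each gene, and so were the further lists. Of 11 on the list, 8 had a probe set and 7 were bright enough to be tested, with 4 positive and 3 negative log2 fold changes, a median of 0.055 and 0 called (2 positive, 5 negative and a median of -0.023 with arrays scaled to one median, and a median of -0.056 without WT replicate 2). The farthest were *Adam4* at 0.27 and *Adam21*, a further testis ADAM gene, at -0.20. *Adam21* had 1769 and 1719 in WT and 1486 and 1543 in *Ccnyl1*-/- testes, so its genotypes did not overlap (adjusted p = 0.81 from limma). *Adam7*, which the epididymis makes, gave signals between 3.62 and 13.3 in the 4 testes and was not tested. Of 13 widely expressed ADAM genes, 12 were tested, with 9 positive and 3 negative values, a median of 0.16 and 0 called. That median was 0.038, with 7 positive and 5 negative values, without *Ccnyl1*-/- replicate 1, and 0.090 and 0.092 without WT replicate 1 and WT replicate 2, and it was 0.091 with arrays scaled to one median. *Adam12*, a gene of mesenchymal tissue, had the largest value on a brightest probe set, 0.71, from 47.4 and 43.9 in WT and 92.4 and 77.4 in *Ccnyl1*-/- testes (adjusted p = 0.816 from limma), and *Adamdec1*, a gene of macrophages, came next with 0.37. The second *Adam12* probe set was too dim to be tested, with 4.61 and 36.9 in WT and 5.31 and 20.8 in *Ccnyl1*-/- testes. A further probe set of *Adam15*, whose brightest gave -0.053, had a larger value of 1.65, from 7.32 and 91.3 in WT and 162 and 123 in *Ccnyl1*-/- testes (adjusted p = 0.789 from limma). It is named after its value was seen.

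The genes that ADAM proteins need for their maturation had small values on their brightest probe sets, mostly below 0, and none passed the test. Of 14 on the list 13 were tested, 2 with a positive and 11 with a negative log2 fold change, counts that also came out with quantile normalization and with arrays scaled to one median. Without WT replicate 2 they were 4 and 9, and without WT replicate 1 they were 3 and 10. The median was -0.11, and 0 were called, with 2 at an unadjusted p under 0.05 from limma. These 2 were *Cmtm2a* and *Cmtm2b*, membrane protein genes needed for ADAM3 on sperm. For comparison, 6.05% of all tested probe sets lay under that p-value, and 45.2% had a negative log2 fold change. Of the 6568 tested probe sets outside the members whose signal averaged 1000 or more, 57.0% were negative and 656 lay under that p-value. Whether the list differs from either background was not tested. *Cmtm2b* had 21761 and 22306 in WT and 19920 and 19946 in *Ccnyl1*-/- testes, or -0.14 as a log2 fold change (adjusted p = 0.662 from limma). The value of *Cmtm2a* was -0.12, against 0.11 on its second probe set, and neither passed. *Ace*, whose testis form is needed for ADAM3 to be distributed normally on sperm, had the lowest value, -0.25, on its brightest probe set and 0.34 on the other. *Tpst2*, a protein tyrosine sulfotransferase, had the highest value on a brightest probe set, 0.23. *Clgn*, which encodes calmegin, had -0.10, the chaperone genes *Calr3* and *Pdilt* had -0.079 and -0.15, and *Tex101* and *Ly6k*, a pair of surface protein genes, had -0.076 and -0.13. Dimmer probe sets of *Calr3* and *Ly6k* gave 0.16 and 0.14, and 1 of *Prss37*, a further gene of the list, gave 0.34 where its brightest gave -0.11.

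**Figure D4:**
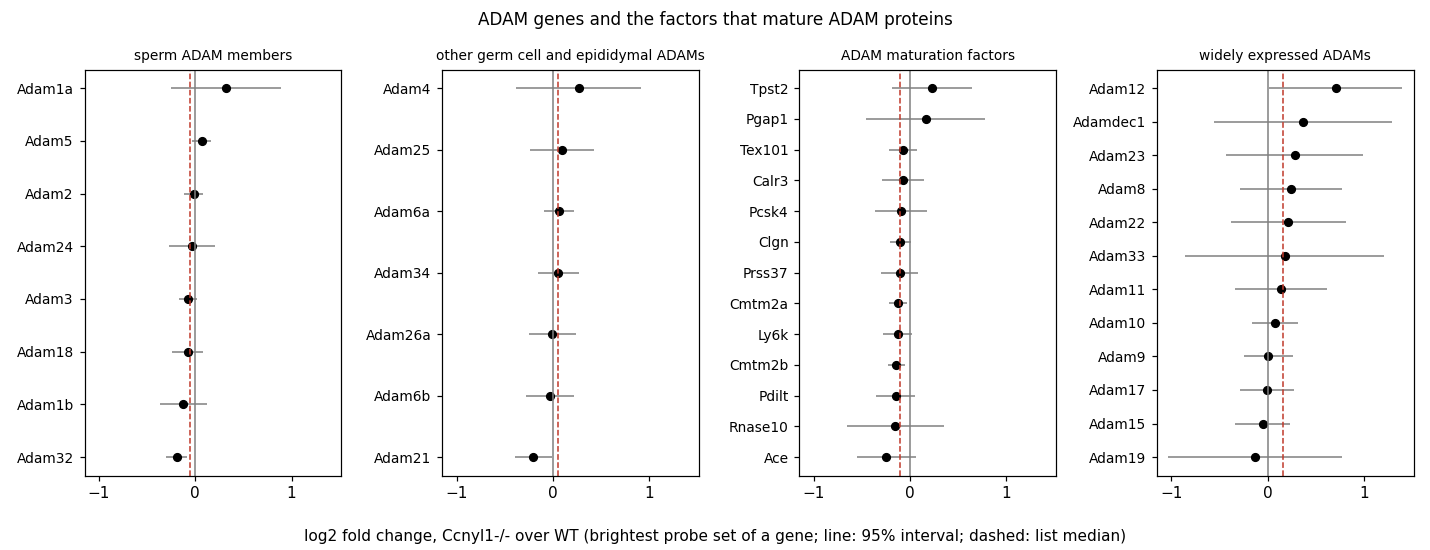
Difference between *Ccnyl1*-/- and WT testes in log2(signal + 16) (horizontal axis) for the tested genes of 4 lists, with points for the brightest probe set of a gene, lines for its 95% interval and a dashed red line for the median of the list. The medians are -0.056 for the sperm ADAM genes, 0.055 for other germ cell and epididymal ADAM genes (-0.023 with arrays scaled to one median), -0.11 for the maturation factors and 0.16 for the widely expressed ADAM genes.

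Markers of the cell types in the sample were read beside these values. For the 9 genes of elongating spermatids, the signals summed to 260544 and 266085 in WT and 267531 and 257801 in *Ccnyl1*-/- testes, with a median log2 fold change of -0.0069. The 8 genes of round spermatids summed to 61645 and 59627 in WT and 59942 and 59427 in *Ccnyl1*-/- testes, with a median of -0.016. Both medians turned positive with quantile normalization (0.0055 and 0.0025) and when a mouse was left out, the first without WT replicate 2 (0.018) or *Ccnyl1*-/- replicate 2 (0.0097) and the second without WT replicate 1 (0.019). The 10 genes of spermatocytes had a median of 0.042 and 7 genes of spermatogonia one of 0.018, which were -0.036 and -0.058 with arrays scaled to one median, and the latter was -0.0033 with quantile normalization and -0.093 without *Ccnyl1*-/- replicate 1. None of the genes of these 4 lists was called. At an unadjusted p under 0.05 from limma there were 5, against 6.05% of all tested probe sets. They were 3 of 9 genes of elongating spermatids and 2 of 10 of spermatocytes, with 0 of 8 for round spermatids and 0 of 7 for spermatogonia. Of the 5, *Smcp* (0.18), *Sycp3* (0.17) and *Prm1* (0.094) were higher in *Ccnyl1*-/- testes on their brightest probe sets, and *Odf1* (-0.14) and *Dmc1* (-0.64) were lower. Among somatic cells, the 5 measured genes of Leydig cells summed to 7149 and 3935 in WT and 9293 and 5220 in *Ccnyl1*-/- testes, so the genotypes overlapped. Such sums weigh the brightest genes most, here *Cyp17a1*, an enzyme of androgen synthesis, with 4117 and 2009 in WT and 6164 and 2731 in *Ccnyl1*-/- testes. The median of the Leydig list was 0.43, but -0.14 without WT replicate 2 and -0.15 without *Ccnyl1*-/- replicate 1. Those of macrophages summed to 3150 and 2115 in WT and 2070 and 1858 in *Ccnyl1*-/- testes, with 6 of 7 negative and a median of -0.20, or 3 of 7 and 0.0012 without WT replicate 1, while without WT replicate 2 the median was -0.41 and 1 gene was called. The medians were 0.13 for Sertoli cells, 0.14 for peritubular myoid cells and -0.048 for endothelium (mean 0.10). They were 0.029 without WT replicate 1 for the first, 0.061 without WT replicate 2 for the second, and 0.027 without WT replicate 2 and 0.075 without *Ccnyl1*-/- replicate 2 for endothelium. With all 4 mice 0 somatic markers were called, with 4 at an unadjusted p under 0.05 from limma, against 6.05% of all tested probe sets. They were 1 of 9 Sertoli genes (*Fshr*, 0.64), 1 of 5 Leydig genes (*Star*, 0.57) and 2 of 7 macrophage genes (*Cd14*, -0.52, and *H2-Aa*, -0.62). Peritubular myoid cells and endothelium had 0 of 5 each. The part of the cell type markers in the ADAM values was not tested. Of 7 epididymal markers, 4 had a probe set, with mean signals between 15.6 and 37.7, and 1 was bright enough to be tested. This was *Lcn8*, with 12.3 and 26.2 in WT and 58.2 and 54.1 in *Ccnyl1*-/- testes (log2 fold change 1.06, adjusted p = 0.81 from limma). *Lcn5* had 66.8 in *Ccnyl1*-/- replicate 1 and between 3.72 and 5.65 in the other mice. *Lcn9* was lower in *Ccnyl1*-/- testes (29.0 and 32.2 in WT, 11.4 and 28.2 without *Ccnyl1*), and the genotypes overlapped for *Cst11*.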

How the data were processed

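Testis RNA of 2 WT and 2 *Ccnyl1*-/- mice was hybridised to Affymetrix arrays, 1 per mouse, and the labels give the mice as biological replicates. The values deposited by the authors are MAS 5.0 signals, intensities on a linear scale with 1 scaling factor per array. The stated target was 100, while a trimmed mean of 500.0 was found on each deposited array (2% left out at each end), so the offset of 16 and the minimum of 32 act at lower brightness than planned. No column of another sample was present in the 45101 probe sets, of which 64 are controls. Levels of different probe sets were not compared, other than to pick the brightest probe set of a gene in the lists, and the marker sums add the signals of several probe sets. Probe sets were named by the platform annotation, and all 10 members matched a RefSeq table of GRCm38.p6, used for gene order only.

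Log2(signal + 16) was fitted in R 4.3.3 with limma 3.58.1 (lmFit, eBayes with a variance trend, genotype alone) over all tested probe sets. Intervals are 95% intervals of the moderated test. All tests were two-sided. The code of the fit was run on data simulated from its own variance estimates, with changes larger than those of the members. Such a run does not test whether the model holds for these arrays. Precision is limited by the number of arrays, 2 per genotype. The members and lists were chosen with earlier results of these data known. All members were named with every probe set, and of the 3 other lists of ADAM and maturation genes the 2 genes farthest from 0 on their brightest probe set, with others named after their values were seen. Alternatives were no offset, an offset of 32, no minimum, a minimum of 100, arrays scaled to one median, quantile normalization, no variance trend, the replicate block, the methods' test and each mouse left out.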

Additional observations from a re-analysis of the deposited data

How the results depend on the processing

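No member probe set was called under any of the 13 alternatives, and the lowest adjusted p of a member was 0.295 from limma, for *Adam32* without WT replicate 1. With a mouse left out, 1 genotype is a single mouse that is assumed to vary like the other 2, which alone give the spread. Of the alternatives 5 change the test and not the fold change. Under the other 8, of 80 log2 fold changes of the members 71 kept their direction. Those that turned were 1439700_at of *Adam1b* (-0.035) and *Adam5* (-0.012) with arrays scaled to one median, *Adam2* with quantile normalization (0.026) and, with 1 mouse left out, *Adam1b* (-0.26 to 0.0080 on 1432657_at and -0.15 to 0.23 on 1439700_at), *Adam2* (-0.032 to 6.9e-04) and *Adam24* (-0.20 to 0.13). The median of the members was -0.056 with a minimum signal of 100, where the dimmest 2 probe sets drop out, -0.011 with quantile normalization and -0.10 with arrays scaled to one median, and from -0.056 to -0.0098 with 1 mouse left out. Over all probe sets the count called was 4 (all lower). It was 7 with arrays scaled to one median (all lower), 0 without the variance trend and 0 with the methods' test, which had 1900 at an unadjusted p under 0.05, and from 6 to 55 with 1 mouse left out. The labels state no pairing by replicate number, and over all tested probe sets the replicate differences correlated at 0.014 between the genotypes. With the replicate block the count called was 14. The cause of these shifts was not tested. Dim signals limit *Adam1a* and 1454317_at of *Adam1b*.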
